A study of Mus musculus with 8 samples.

Results

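The 10 imprinted genes Meg3, Rian, Mirg, H19, Igf2, Igf2r, Airn, Peg3, Plagl1 and Kcnq1ot1 were followed across the cell types of the adult mouse heart. They were taken by symbol from the gene list of the count tables, and all 10 were found among 32285 listed genes. The tables come from single-nucleus RNA sequencing with 10x Genomics droplets, in which single nuclei receive a barcode and each captured RNA molecule is counted once as a UMI (unique molecular identifier). The labels name 8 libraries of wild-type mice, both sexes, that are either nTg (nontransgenic) or Tg (constitutively expressing CCNA2, cyclin A2, a protein that drives the cell cycle). The age beyond adult, the promoter of the transgene, the strain and the number of animals behind a library are not given in the sources used here, so spread between libraries may be technical and the p-values measure only that spread.

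Only 5 libraries entered, 1 with the label nTg female 1 and 4 with a Tg label. Every run of 5 values below gives nTg female 1 first, then the female pair Tg female 1 and Tg female 2, then the male pair Tg male 1 and Tg male 2. The matrices under the other 3 labels were identical to the last 3 of these and did not match their own barcode lists, so these 3 libraries were not analysed here. Ccna2, the gene of the transgene, went against 2 of the labels: its level in cardiomyocytes was 444 CPM (UMIs per 1000000 UMIs of the class) in the library labelled nTg female 1 and 0.524 CPM (7 UMIs) in the library labelled Tg female 1, against 825, 232 and 143 CPM in the other libraries. Libraries are therefore named by label, and no direction by genotype can be trusted beyond the labels. Total depth ran from 25045167 to 38593706 UMIs per library, and 34659 nuclei were kept, between 5773 and 8817 per library. Pairs of libraries shared 14 to 28 barcodes. The sex labels matched Xist, the RNA of the silent X chromosome, at 1283 to 1469 CPM in the 3 female and 0.335 to 8.18 CPM in the 2 male libraries. Clusters were named by fixed marker genes as cardiomyocyte-like (6610 nuclei), fibroblast-like (12607), endothelial-like (6810), endocardial-like (1345), lymphatic-endothelial-like (766), macrophage-like (2530), pericyte-like (2183) and smooth-muscle-like (520), and the suffix is dropped below. The library labelled Tg female 2 stood apart: it held 446 nuclei in unnamed clusters against 60 to 113 in the other libraries, and the fibroblast gene Dcn reached 321 CPM in its endothelial nuclei against 75.4 to 94.7 CPM in theirs.

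An imprinted gene is read from only 1 parental copy, the maternal or the paternal. This is because the germ line of 1 parent marks its copy, which may be the read or the silent copy, with DNA methylation at a control region. Several imprinted loci hold a long noncoding RNA that is read from the copy on which neighbouring protein genes are silent. Many imprinted genes act on growth before birth, and most are turned down after birth. Meg3, Rian and Mirg are noncoding RNAs of the maternal copy of the Dlk1-Dio3 region, and Rian and Mirg carry snoRNAs and miRNAs. H19 is a maternal noncoding RNA next to Igf2, a paternally expressed growth factor. Igf2r, the receptor that carries IGF2 to lysosomes, is maternal, and Airn is the paternal RNA that runs across its promoter in the opposite direction. Peg3 and Plagl1 are paternally expressed zinc-finger genes, and Kcnq1ot1 is the paternal RNA inside the potassium channel gene Kcnq1. The counts do not separate the parental copies, so what follows are levels of total RNA.

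The members lie on 4 chromosomes of the mouse genome (GRCm38, the assembly that mm10 names; GENCODE vM21 annotation). Meg3 (ENSMUSG00000021268, chr12:109541001-109571726), Rian (ENSMUSG00000097451, chr12:109603940-109661716) and Mirg (ENSMUSG00000097391, chr12:109729764-109749460) follow one another on the plus strand. H19 (ENSMUSG00000000031, chr7:142575529-142578143), Igf2 (ENSMUSG00000048583, chr7:142650766-142666816), Kcnq1ot1 (ENSMUSG00000101609, chr7:143203458-143296549) and Peg3 (ENSMUSG00000002265, chr7:6703892-6730431) are on the minus strand of chromosome 7. Igf2r (ENSMUSG00000023830, chr17:12682406-12769664, minus strand) and Airn (ENSMUSG00000078247, chr17:12741311-12860136, plus strand) overlap over 28354 bases, and the start of Airn lies in an intron of Igf2r. Kcnq1ot1 lies wholly inside Kcnq1 (chr7:143106362-143427042, plus strand), with its start in an intron. Plagl1 (ENSMUSG00000019817, chr10:13060504-13131694) is on the plus strand. Whether the counting used the strand is not given in the sources used here, so reads of Airn and Igf2r in their overlap, and of Kcnq1ot1 and Kcnq1, cannot be told apart.

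The sequences before the start sites are shown for their CG pairs, the letters that imprinting marks by methylation, whose number differed between the members. They are from RefSeq (GRCm38.p6), 5′ to 3′ on the gene's strand, with each CG in capitals. For noncoding RNAs they run from 250 bases before to 50 after the start (300 bases), and for protein genes over the 250 bases before it. Positions are chr12:109540746-109541045 for Meg3, chr12:109603695-109603994 for Rian, chr17:12741061-12741360 for Airn, chr17:12769707-12769956 for Igf2r, chr7:143296498-143296797 for Kcnq1ot1 and chr10:13090582-13090831 for Plagl1.
Meg3: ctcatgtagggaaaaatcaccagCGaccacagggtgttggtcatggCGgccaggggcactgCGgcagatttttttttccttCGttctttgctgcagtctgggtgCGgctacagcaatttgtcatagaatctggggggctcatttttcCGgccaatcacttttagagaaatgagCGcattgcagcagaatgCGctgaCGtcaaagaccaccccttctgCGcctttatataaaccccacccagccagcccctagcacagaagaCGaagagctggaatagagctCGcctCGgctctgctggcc
Rian: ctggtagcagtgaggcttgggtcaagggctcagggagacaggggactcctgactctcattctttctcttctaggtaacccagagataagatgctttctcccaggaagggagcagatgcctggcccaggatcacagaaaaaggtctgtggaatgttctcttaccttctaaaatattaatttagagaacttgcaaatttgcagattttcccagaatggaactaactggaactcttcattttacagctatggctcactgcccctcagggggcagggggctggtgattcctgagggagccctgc
Airn: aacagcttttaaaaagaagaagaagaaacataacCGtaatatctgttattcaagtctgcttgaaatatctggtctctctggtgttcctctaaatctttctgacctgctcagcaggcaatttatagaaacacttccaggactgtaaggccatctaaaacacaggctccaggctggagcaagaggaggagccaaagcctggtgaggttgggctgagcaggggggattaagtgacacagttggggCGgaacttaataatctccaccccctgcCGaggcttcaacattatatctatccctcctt
Igf2r: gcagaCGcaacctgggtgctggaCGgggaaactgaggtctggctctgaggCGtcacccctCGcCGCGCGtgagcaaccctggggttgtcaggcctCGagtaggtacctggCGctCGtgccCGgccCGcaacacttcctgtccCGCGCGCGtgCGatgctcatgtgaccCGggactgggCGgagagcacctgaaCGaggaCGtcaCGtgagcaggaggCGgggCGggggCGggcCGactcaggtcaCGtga
Kcnq1ot1: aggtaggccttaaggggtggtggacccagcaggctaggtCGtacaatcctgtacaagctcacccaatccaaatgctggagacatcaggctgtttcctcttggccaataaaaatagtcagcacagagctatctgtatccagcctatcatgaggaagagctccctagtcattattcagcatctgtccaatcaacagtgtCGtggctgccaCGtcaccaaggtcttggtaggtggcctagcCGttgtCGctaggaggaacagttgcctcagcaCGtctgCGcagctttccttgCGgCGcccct
Plagl1: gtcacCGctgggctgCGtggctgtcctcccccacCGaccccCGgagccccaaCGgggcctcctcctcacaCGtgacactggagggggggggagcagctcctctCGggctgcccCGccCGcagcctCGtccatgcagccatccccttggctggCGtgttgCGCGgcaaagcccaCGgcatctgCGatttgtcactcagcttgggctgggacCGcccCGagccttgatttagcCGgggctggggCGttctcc
The Igf2r sequence held 27 CG pairs, and 8.56% of all 32851 promoters in the table held at least as many over the same length. Plagl1 held 19 (19.7% held at least as many). Meg3 held 13 (37.9%), Mirg 10 (43.5%), Kcnq1ot1 9 (45.8%), Peg3 8 (43.0%), Airn 3 (76.7%), and Igf2 1 (92.1%), while Rian held 0, against medians of 7.0 in 300 and 6.0 in 250 bases. The word TGCCGC, which the imprint-keeping protein ZFP57 binds when methylated, was searched on both strands and stood once each in Meg3 and Plagl1 and in none of the other 7 sequences, which take 1 start for each gene. It occurred in 11.6% of all 300-base and 8.68% of all 250-base promoters. The RefSeq starts of Mirg and Plagl1 lie 5217 and 30328 bases from the GENCODE starts, and Igf2 has 4 listed starts. The Igf2 value above is for the one nearest the GENCODE start, and over 300 bases the 4 starts held 2, 14, 24 and 7 CG pairs, with the word at the second of them, 5545 bases from the GENCODE start.

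The miRNAs inside the noncoding RNAs are shown because these transcripts are their hosts, although nuclear RNA libraries of this kind do not measure miRNAs. RefSeq hairpins inside the members number 1 in Meg3, 3 in Rian, 14 in Mirg, 1 in H19 and 1 in Igf2. The 39 mature miRNAs carry 38 different seeds (bases 2 to 8, in capitals), and the single shared seed belongs to miR-453 and miR-496a-5p, both inside Mirg. The examples are from Meg3 (miR-770), Rian (miR-370), Mirg (the next 5), H19 (miR-675) and Igf2 (miR-483).
miR-770-5p: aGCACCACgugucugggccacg
miR-370-3p: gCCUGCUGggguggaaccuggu
miR-453: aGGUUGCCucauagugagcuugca
miR-496a-5p: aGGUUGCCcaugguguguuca
miR-154-5p: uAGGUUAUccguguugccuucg
miR-377-3p: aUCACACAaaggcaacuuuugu
miR-410-3p: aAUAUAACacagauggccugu
miR-675-5p: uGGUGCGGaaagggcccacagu
miR-483-3p: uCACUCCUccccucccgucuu
Of the 92 hairpins listed on chromosome 12, 54 lie on the plus strand between the start of Meg3 and the end of Mirg, so most sit between the annotated members rather than inside them.

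The members divided into 3 sets by the class, among the 8 with enough nuclei in every library, in which they were highest. Meg3, Rian and Mirg were highest in fibroblasts, H19, Igf2, Igf2r, Airn, Peg3 and Plagl1 in endocardial nuclei, which line the heart chambers, and Kcnq1ot1 in cardiomyocytes, the contracting muscle cells. Over all genes of at least 5 CPM in some class, the highest class was fibroblasts for 12.9%, endocardial nuclei for 7.76% and cardiomyocytes for 15.1%. For 8 of the 10 members the highest class was the same in all 5 libraries, and for Mirg and Airn in 4. Among the same genes, 40.8% (6440 of 15792) had the same highest class in all 5 libraries. Levels are CPM of the class in a library and describe these libraries, with no test between classes, and they are not compared between genes, which differ in length. The plot of levels by class shows the 3 sets.

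Meg3 stood at 619, 801, 912, 946 and 901 CPM in fibroblasts, the matrix-producing cells, a mean of 836 ± 133 CPM (SD, n = 5 libraries). In pericytes, the mural cells of capillaries, it stood at 477, 541, 669.7, 594 and 554 CPM (567 ± 71.1, SD, n = 5). Each library had more Meg3 in fibroblasts than in pericytes, and the difference of the means was larger than the SD of either class. The next classes were far lower, at 65.7 ± 43.3 CPM in endocardial nuclei, 49.3 ± 18.2 in smooth muscle, 19.7 ± 16.5 in macrophages, 12.7 ± 13.1 in cardiomyocytes, 11.5 ± 5.44 in endothelial and 8.93 ± 8.12 in lymphatic nuclei. The order within the last 4 did not exceed the SD. Among the classes with too few nuclei for a value per library, Schwann cells, the glia of cardiac nerves, held 485 CPM when pooled (95% Poisson interval 429.9 to 546, counting error only) and mesothelial cells, the outer lining, 190.5 CPM (149.8 to 239).

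Meg3 was spread over many fibroblast nuclei rather than held by a few. With each nucleus thinned to 1000 UMIs, 47.3 ± 5.28% of fibroblast nuclei held a Meg3 UMI (39.3 to 51.6% over libraries, and 62.3 to 75.5% before thinning), and 36.6 ± 3.16% of pericyte nuclei did. The share was 0.870 ± 0.333% in endothelial nuclei and 0.366 ± 0.136% in cardiomyocytes. The part of free RNA in these shares was not tested. Median depth before thinning was 2079 to 3025 UMIs per fibroblast nucleus and 1544 to 2189.5 per endothelial nucleus, and 1.33% and 5.04% of these nuclei were left out as under 1000 UMIs.

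Rian followed the same classes, at 92.7, 136, 150.0, 119 and 97.7 CPM in fibroblasts (119 ± 24.5, SD, n = 5) and 71.7, 81.3, 109, 91 and 87.3 CPM in pericytes (88.2 ± 14). Every library was higher in fibroblasts. Mirg stood at 19.3, 22.1, 25.6, 20.7 and 19.8 CPM in fibroblasts (21.5 ± 2.51) and at 17.7, 20.9, 24.1, 12.8 and 20 CPM in pericytes (19.1 ± 4.23), a difference within the SD. All 3 RNAs were lowest or near lowest in endothelial and lymphatic nuclei, where Mirg gave 2 and 0 UMIs in all. The 0 of lymphatic nuclei allows up to 5.65 to 11 CPM by library (3 UMIs of each total).

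The ratio of Rian to Meg3 was similar in fibroblasts and pericytes, the classes with the highest levels of these RNAs among the 8. Rian gave 0.144 ± 0.0262 UMIs per Meg3 UMI in fibroblasts and 0.155 ± 0.00562 in pericytes (n = 5 each), a difference within the SD. Mirg gave 0.0261 ± 0.00407 and 0.0339 ± 0.00699, a difference larger than the SD of either class. Its ranges over libraries overlapped, at 0.0219 to 0.0312 and 0.0215 to 0.0387. Over the 40 sums of 8 classes by 5 libraries, the levels on the log2(CPM + 1) scale had a Pearson r of 0.901 for Meg3 and Rian, 0.867 for Meg3 and Mirg and 0.878 for Rian and Mirg. These sums share libraries and depth, so the r is a description. Within fibroblasts thinned to 1000 UMIs, 851 nuclei held both Meg3 and Rian, against 590.4 when the shares of both are multiplied in each library, and 64 held both Rian and Mirg, against 26.3. The number was above the product in 5 of 5 libraries for both pairs.

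Some other genes of the region were present in the same classes. B830012L14Rik, a noncoding RNA between Rian and Mirg, stood at 24.4 ± 6.45 CPM in fibroblasts and 16.3 ± 4.93 in pericytes, and Rtl1, a retrotransposon-derived paternal gene, at 12.8 ± 3.81 and 10.9 ± 8.21. The paternal protein genes at the ends were near 0: Dlk1, an inhibitor of Notch signalling, was at 0.170 ± 0.231 CPM and Dio3, which inactivates thyroid hormone, at 0.0796 ± 0.178 CPM in fibroblasts. Dio3os, the RNA beside Dio3, reached 5.23 ± 3.52 CPM in fibroblasts and 0 in pericytes.

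Meg3 and Rian also varied among fibroblast clusters. The cluster led by Wif1 and Dkk3 (344 nuclei) held Meg3 at 1231 CPM (1105 to 1484 over libraries), against 821 CPM (590.0 to 935) in the other fibroblasts, and no library of the first overlapped the second. Rian stood at 206 against 116 CPM and Peg3 at 88.5 against 59.1 CPM, each higher in the Wif1 and Dkk3 cluster in 5 of 5 libraries. Mirg was at 34.3 CPM in this cluster (11.4 to 74.4, on 50 UMIs), a range that spanned the 17.3 to 40.1 CPM of the Fgf10 and Inmt fibroblast cluster. Plagl1 was at 0.513 against 4.54 CPM, with 1 UMI behind the first value. Over all genes of at least 5 CPM in either, 9.84% were higher and 14.7% lower in this cluster in all 5 libraries. This cluster and those named below were chosen with earlier results known, and the clustering left out the imprinted genes. The Wif1 and Dkk3 cluster had 5 fibroblast markers raised, against 10 in the other fibroblast clusters. At resolution 0.5, and with imprinted genes in the clustering, a cluster with Wif1 and Dkk3 among its leading genes was left unnamed.

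Cardiomyocytes held little Meg3, and in 2 libraries most of it came from single nuclei. Meg3 stood at 2.91, 22.1, 30.9, 4.81 and 2.60 CPM and Rian at 0.520, 17.1, 6.54, 1.42 and 0.742 CPM. The libraries labelled Tg female 1 and Tg female 2 were above the other 3 for both RNAs. In the library labelled Tg female 1, 1 nucleus of 4946 UMIs held 240 of 296 Meg3, 216 of 229 Rian and 82 of 85 Mirg UMIs of all 1994 cardiomyocyte nuclei. Without that nucleus the levels there were 4.19, 0.973 and 0.224 CPM. In the library labelled Tg female 2, 1 nucleus of 854 UMIs held 130 of 194 Meg3 and 33 of 41 Rian UMIs, and without it Meg3 was at 10.2 and Rian at 1.28 CPM.

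Both nuclei were unusual beyond the imprinted region. The first drew 32.8% of its UMIs from chromosome 12 and the second 82.9%, against a median of 3.0% and 2.88% in the other cardiomyocyte nuclei of their libraries. With Meg3, Rian, Mirg, B830012L14Rik and Rtl1 left out, the shares were still 19.9% and 62.9%. The second had UMIs in 227 genes of chromosome 12, against a median of 19 in nuclei of like depth. In the first, 4 of 10 cardiomyocyte markers had 249 UMIs in all, 207 of them from Ttn, a sarcomere gene on chromosome 2, which gave 43.3% of the UMIs of this nucleus. Its other markers were Smoc1 of the endocardial list (17 UMIs, on chromosome 12), Scn7a of the Schwann list (6) and Mertk of the macrophage list (5), and the fibroblast list was at 0. In the second, 5 of 10 cardiomyocyte markers had 6 UMIs, 1 of 10 fibroblast markers had 2 and 2 of 10 macrophage markers had 2, so its markers name no class firmly. The plot of Meg3 by nucleus shows how far they lie from the rest.

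**Figure D1:**
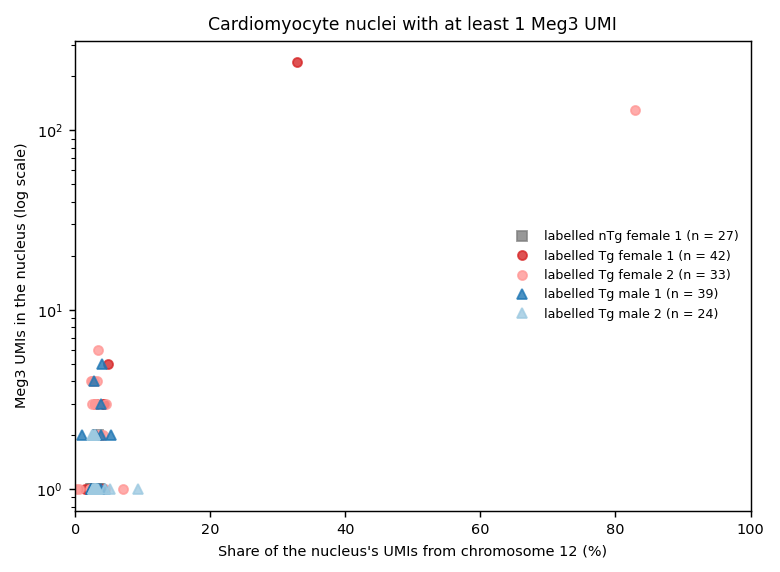
Meg3 UMIs and share of UMIs from chromosome 12 in single nuclei, as labelled on the axes. The 2 cardiomyocyte nuclei with 240 and 130 Meg3 UMIs stand apart from all other cardiomyocyte nuclei, in the libraries labelled Tg female 1 and Tg female 2.

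Plagl1, a zinc-finger factor that slows the cell cycle, was the member most restricted to 1 class by its ratio to the next. It stood at 177, 156, 96.2, 184 and 177 CPM in endocardial nuclei (158 ± 36.1, SD, n = 5), and the next class, smooth muscle, held 6.06 ± 4.62 CPM. No library of another class reached the lowest endocardial value. Thinned to 1000 UMIs, 13.4 ± 3.35% of endocardial and 0.647 ± 0.237% of endothelial nuclei held a Plagl1 UMI.

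Igf2, the growth factor, stood at 394, 356, 73.3, 352 and 428 CPM in endocardial nuclei (320.4 ± 142) and at 60.1, 66.7, 29.4, 63.4 and 55.1 CPM in endothelial nuclei (54.9 ± 14.9). Pericytes followed at 14.6 ± 5.68 CPM, and fibroblasts and cardiomyocytes held 3.69 ± 1.10 and 0.806 ± 0.437 CPM. The library labelled Tg female 2 was the lowest in both leading classes, and its endocardial value lay near the endothelial values of the others. The thinned share of nuclei with an Igf2 UMI was 17.4 ± 6.09% in endocardial nuclei (6.94 to 22.2%) and 4.41 ± 1.41% in endothelial nuclei, against 0.135 ± 0.0895% in cardiomyocytes.

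H19, the noncoding RNA beside Igf2, had 261 UMIs in all nuclei, 213 of them endocardial. It stood at 36.8, 83.5, 34.4, 28.0 and 79.2 CPM there (52.4 ± 26.7, SD, n = 5), with lymphatic nuclei next at 4.75 ± 3.46 CPM and every other class under 1 CPM. Every endocardial value was above every value of the other classes. Endothelial nuclei, the class with the next highest Igf2, held 0.501 ± 0.336 CPM of H19 (8 UMIs). The ratio of H19 to Igf2 UMIs was 0.212 ± 0.157 in endocardial nuclei and 0.00808 ± 0.00524 in endothelial nuclei. Of 1320 thinned endocardial nuclei, 26 held both RNAs, against 9.50 from the product of the shares, and the count was above the product in 5 of 5 libraries.

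Peg3, a zinc-finger gene named for its paternal expression, was spread more widely. It stood at 114, 103, 64.1, 122 and 125 CPM in endocardial nuclei (106 ± 24.9) and at 70.9, 75.8, 48.6, 52.8 and 52.2 CPM in fibroblasts (60.1 ± 12.4). Only the endocardial value of the library labelled Tg female 2 lay within the fibroblast range. Endothelial nuclei (51.8 ± 11.2), smooth muscle (44.2 ± 14.5) and pericytes (40.4 ± 12.8) came next, and neighbours in this order from fibroblasts to pericytes did not differ beyond the SD. Cardiomyocytes held 11 ± 3.28 CPM and macrophages, phagocytes of the tissue, 1.99 ± 0.886 CPM. Mesothelial cells, too few for a value per library, held 119 CPM of Peg3 when pooled (95% Poisson interval 87.7 to 159).

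Within the endocardial class, Igf2 and Plagl1 ran opposite to Meg3. The cluster led by Npr3 and Nrg1 (1017 nuclei) held Plagl1 at 203 CPM (141 to 252 over libraries) and the cluster led by Hapln1 and Wnt9b (328 nuclei) at 31.7 CPM (13 to 52.2). Igf2 stood at 395 CPM (88.3 to 517) against 87.1 CPM (29.8 to 150.0), and Meg3 at 19.9 CPM (5.18 to 56.5) against 194 CPM (94 to 276). The ranges of Plagl1 and of Meg3 did not overlap, and those of Igf2 met only through the library labelled Tg female 2. Airn was at 2111 against 1600.1 CPM and Igf2r at 1138 against 738 CPM, while Peg3 (101 against 113 CPM) and Kcnq1ot1 (567 against 569.8 CPM) went 1 way in some libraries and the other way in the rest. Of 9 members of at least 5 CPM, 4 were higher and 2 lower in the Npr3 and Nrg1 cluster in all 5 libraries. Of all genes of at least 5 CPM in either cluster, 10.1% were higher and 8.46% lower in the Npr3 and Nrg1 cluster in all 5 libraries.

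Within the endothelium, Igf2 was concentrated in clusters with arterial genes. The cluster led by Gkn3 and Gja5, genes of arterial endothelium (662 nuclei), held Igf2 at 318 CPM (125 to 413), the Sema3g and Sox17 cluster (1257 nuclei) at 90.3 CPM (49.9 to 124), and the Car4 and Rgcc cluster, genes of capillaries (3786 nuclei), at 8.40 CPM (5.75 to 10.3). The 3 ranges did not overlap, and the library labelled Tg female 2 gave the lowest value, 125 and 49.9 CPM, in the first 2. Kcnq1ot1 was also higher in the Gkn3 and Gja5 cluster than in the Car4 and Rgcc cluster, at 684 against 388 CPM, and Plagl1 at 15.5 against 2.42 CPM. Igf2r (293 against 825 CPM), Airn (511 against 1458 CPM) and Peg3 (29.9 against 45.7 CPM) were lower in it in 5 of 5 libraries. Of 7 members of at least 5 CPM, 3 were higher and 3 lower in all 5 libraries. For this pair of clusters, 12.4% of all genes were higher and 20.1% lower in all 5 libraries.

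Peg3 had its endothelial peak elsewhere. In the cluster led by Lhx6 and Col13a1 (1105 nuclei) it stood at 128 CPM (102 to 154), against 16.1 CPM (6.62 to 21.8) in the Sema3g and Sox17 cluster and 29.9 CPM in the Gkn3 and Gja5 cluster. No library of the Lhx6 and Col13a1 cluster came down to the values of the other endothelial clusters named. In cardiomyocytes, Peg3 was at 64.1 CPM (42.0 to 93.0) in the small cluster led by Cntn2 and Fgf12, genes of conduction cells (122 nuclei, 7 to 38 per library), against 10.3 CPM (7.18 to 15.4) in the other cardiomyocytes, on 46 UMIs. Rian was at 37.7 CPM there, on 24 UMIs, against 4.89 CPM in the other cardiomyocytes, or 0.535 CPM without the 2 single nuclei described above. For this cluster 6.52% of all genes were higher and 12.4% lower in all 5 libraries. The plot of vessel-lining clusters gives each library.

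Igf2r and Airn, which share an intron-to-promoter stretch, followed one another across all classes. Igf2r stood at 795, 1151, 1253, 1007 and 968 CPM in endocardial nuclei (1035 ± 176, SD, n = 5) and at 780.5, 959, 1235, 795 and 740.3 CPM in pericytes (902 ± 204). Airn stood at 1784, 2443, 1816, 1902 and 1943 CPM (1978 ± 268) and at 1899, 2059, 1673, 1517 and 1615 CPM (1752 ± 221). The endocardial and pericyte ranges overlapped for both genes, and the difference was within the SD. Endothelial nuclei, fibroblasts and cardiomyocytes held 676 ± 85.7, 589 ± 109.8 and 546 ± 111 CPM of Igf2r and 1211 ± 154, 1028 ± 168 and 983 ± 59.5 CPM of Airn.

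Macrophages were the exception for both genes. Igf2r was at 19.7, 11.1, 36.8, 21.7 and 7.77 CPM (19.4 ± 11.3) and Airn at 21.9, 23.1, 63.1, 38.6 and 6.22 CPM (30.6 ± 21.5) in macrophages. Every macrophage value was below every value of the other 7 classes, where the lowest class means were 307 CPM for Igf2r and 548 CPM for Airn, both in lymphatic nuclei. The library labelled Tg female 2, with the most Dcn in nuclei of other classes (271 CPM in macrophages against 62.2 to 90.7), also held the highest macrophage values of both. The part of free RNA in these values was not tested. B cells and T or NK cells, pooled, held 280.2 CPM (95% Poisson interval 216 to 357) and 336 CPM (274 to 406) of Igf2r. These few nuclei differed by library: B cells held 1, 11, 32, 21 and 0 UMIs and T or NK cells 3, 14, 59, 18 and 11, most in the library labelled Tg female 2, and the part of free RNA in them was not tested.

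Airn gave between 1.54 and 2.15 UMIs per Igf2r UMI in the means of the 8 classes. In cardiomyocytes it was 2.09, 2.04, 1.27, 1.84 and 2.04, in fibroblasts 1.90, 2.06, 1.36, 1.71 and 1.81, and in pericytes 2.43, 2.15, 1.35, 1.91 and 2.18. The library labelled Tg female 2 was the lowest in 7 of 8 classes, at 1.27 to 1.69 there. The exception was macrophages, with 8 to 60 Airn UMIs per library. The same library held the highest Igf2r level in 8 of 8 classes. It also had the lowest median depth, 2140.5 UMIs per nucleus against 2637 to 3053, and the part of its depth and free RNA in the ratio was not tested. Pearson r of the 2 levels over the 40 sums was 0.987, and the part of reads from the shared stretch in it was not tested.

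**Figure D2:**
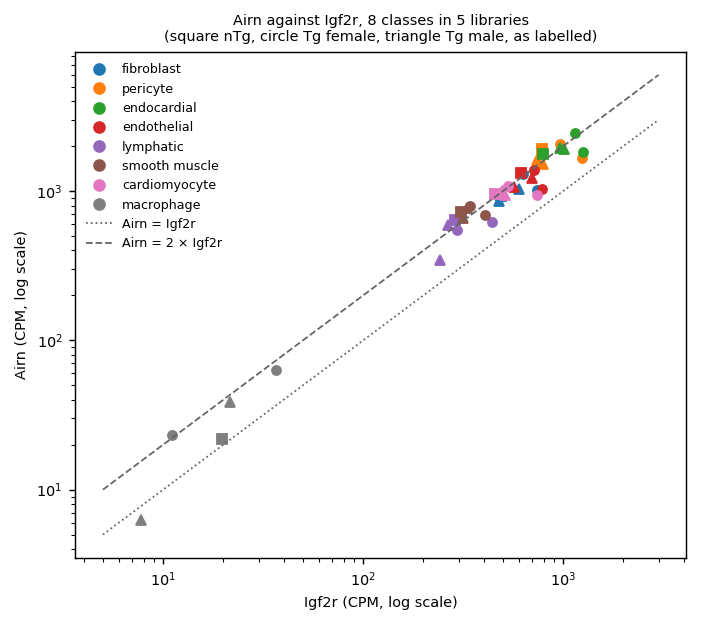
Airn and Igf2r by class and library, with levels in CPM and the ratio of their UMIs. The library labelled Tg female 2 has the lowest ratio in 7 of 8 classes.

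Kcnq1ot1 was highest in cardiomyocytes, at 853, 1334, 1604, 903 and 726 CPM (1084 ± 369.8, SD, n = 5). Endocardial nuclei held 519, 620.3, 515, 575 and 619 CPM (569.8 ± 51.5). No endocardial value reached the lowest cardiomyocyte value, and the libraries labelled Tg female 1 and Tg female 2 stood above the other 3 in cardiomyocytes. The remaining classes followed at 461 ± 97.6 (endothelial), 378 ± 49.7 (fibroblast), 338 ± 65.0 (smooth muscle), 279.5 ± 35.7 (pericyte), 219.7 ± 22 (macrophage) and 204 ± 46.4 CPM (lymphatic). The RNA was thus present in each of these 8 classes, with no class mean under 204 CPM. Mesothelial cells, too few for a value per library, held 803 CPM when pooled (95% Poisson interval 716 to 896).

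Kcnq1, the channel gene around it, was also highest in cardiomyocytes, at 176 ± 25.6 CPM, followed by endothelial nuclei at 68.9 ± 16.3 CPM. The 2 genes did not keep 1 ratio: Kcnq1ot1 gave 6.08 ± 1.52 UMIs per Kcnq1 UMI in cardiomyocytes, 6.74 ± 0.539 in endothelial nuclei and 41.0 ± 16.3 in fibroblasts (n = 5 libraries each). Every fibroblast ratio (27.5 to 67.3) lay above every cardiomyocyte ratio (4.87 to 8.59). Cdkn1c, a growth-restraining neighbour that the paternal RNA silences in the embryo, was highest in endothelial nuclei at 44.9 ± 10.5 CPM and stood at 0.508 CPM in cardiomyocytes.

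The genes with the pattern most like each member, by Pearson r of log2(CPM + 1) over the 40 sums, are given as a description. For Meg3 they were C730002L08Rik (0.921), Scn7a (0.917) and Gli3 (0.916), and for Rian Cldn10 (0.918), Gpr153 (0.912) and its neighbour B830012L14Rik (0.911). For Mirg they were Gm26743 (0.891), Ptgir (0.891) and Gm13372 (0.886), and for H19 Glp1r (0.906), A2m (0.882) and Hapln1 (0.871). Igf2 was most like Cemip2 (0.882), Vwf (0.873), a clotting factor of endothelium, and Acvr1 (0.871), and Plagl1 most like Stra6 (0.877), Gm16252 (0.859) and A2m (0.853). Igf2r and Airn each had the other first, then Gm49959 (0.982 and 0.974) and Gm49958 (0.980 and 0.970). Among the genes most like Peg3 were Sulf1 (0.884) and Slc44a2 (0.865), and Kcnq1ot1 was most like Gm5860 (0.866), Clip4 (0.861) and Trak2 (0.856).

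Among 56 other imprinted genes, 39 reached 5 CPM in some class, and 15 of these (38.5%) had the same highest class in all 5 libraries, near the 40.8% of all genes. Their highest classes were spread: 7 in cardiomyocytes, 7 in endothelial nuclei, 6 in fibroblasts, 6 in pericytes, 5 in macrophages, 4 in smooth muscle, and 2 each in endocardial and lymphatic nuclei. The shares of all genes in this order were 15.1, 11.7, 12.9, 10.3, 21.5 and 8.40%, and 7.76% and 12.4% for the last 2. The 5 with the highest level were Dcn, a matrix proteoglycan imprinted in placenta (3099.8 CPM in fibroblasts), Gnas, a G-protein subunit (532 CPM in lymphatic nuclei), Cd81, a tetraspanin (459.7 CPM in endothelial nuclei), Grb10, an adaptor that dampens insulin and IGF signals (328 CPM in endothelial nuclei), and Ppp1r9a (279 CPM in macrophages).

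In the IGF system, Igf2, Igf2r and the binding proteins Igfbp4 and Igfbp6 were highest by mean in endocardial nuclei, and other partners elsewhere. Endocardial nuclei were the highest class for 7.76% of all genes. Igfbp4 stood at 109 ± 44.1 CPM there against 103 ± 24.4 in fibroblasts, and Igfbp6 at 130.4 ± 64.3 against 78.5 ± 21.9. Both differences were within the SD, as was that of Igf2r from pericytes. Neither binding protein had the same highest class in all 5 libraries. Igf1r, the receptor that signals for both IGFs, was highest in smooth muscle at 938 ± 174 CPM, and Insr, the insulin receptor, in cardiomyocytes at 503 ± 62.3 CPM. Igf1, the other ligand, was highest in macrophages at 286 ± 75.2 CPM, where Igf2r was lowest. Igfbp5, an IGF-binding protein, was highest in lymphatic nuclei at 993 ± 408 CPM. Of the 14 genes of this list, 13 reached 5 CPM and 8 of them (61.5%) had the same highest class in all 5 libraries.

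Genes that act on imprints or on DNA methylation were highest in several classes. Zfp57, which keeps imprints, was highest in endocardial nuclei, at 29.3 ± 3.64 CPM. Zfp445, a zinc-finger protein with the same task, was highest in cardiomyocytes at 413 ± 153 CPM. Tet3, which oxidises methylated cytosine, was highest in macrophages at 343 ± 36.1 CPM. Of 13 such genes 12 reached 5 CPM, 6 of them were highest in macrophages, the class that is highest for 21.5% of all genes, and 5 (41.7%) had the same highest class in all 5 libraries.

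Sex was compared within the 4 libraries labelled Tg, 2 female against 2 male, by edgeR's quasi-likelihood test on the summed counts of each class. Ccna2 in cardiomyocytes stood at 0.524 and 825 CPM in the 2 female libraries and at 232 and 143 CPM in the 2 male ones. The female libraries may thus differ in genotype, and the part of transgene expression in the sex differences cannot be told apart. Of 53 member-by-class tests none passed an adjusted p of 0.05, 9 had an unadjusted p under 0.05, and 27 pairs had too few UMIs to be tested. Over all genes and classes, edgeR called 0.215% of tests (185 of 86085), and 7.87% had an unadjusted p under 0.05. DESeq2 called 3 of the 53, Meg3, Rian and Kcnq1ot1 in cardiomyocytes. edgeR called 5 member tests without the library labelled Tg female 1, 3 without Tg female 2, 3 without Tg male 1 and 4 without Tg male 2, Meg3 in cardiomyocytes in each case. In 23 of the 53 both female libraries lay above both male ones, in 2 below, and in 28 the groups overlapped, while over all tests 22.4% lay above and 15.6% below. The median log2 difference was 0.26 for the members and 0.01 for all genes. The member tests are not independent, since they share libraries and since Igf2r and Airn overlap. Igf2r and Airn each had 8 of 8 log2 differences above 0 and Kcnq1ot1 7 of 8, against 3 of 6 for Peg3 and 3 of 5 for Igf2. Over all members, 45 of 53 were above 0.

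The 3 pairs with the highest log2 differences were Rian and Meg3 in cardiomyocytes and Rian in endocardial nuclei, classes in which these RNAs are low. Meg3 in cardiomyocytes was at 22.1 and 30.9 CPM in the female and 4.81 and 2.60 CPM in the male libraries, a log2 difference of 2.78 (SE 0.32, edgeR adjusted p = 0.153). Rian in cardiomyocytes was at 17.1 and 6.54 against 1.42 and 0.742 CPM, a log2 difference of 3.44 (SE 0.57, edgeR adjusted p = 0.250). Both rest on the 2 nuclei described above: without these and the 2 endocardial nuclei that hold most of a sum, the log2 differences were 0.86 and -0.02. Dcn moved with what remained of Meg3: it stood at 90.9 CPM in cardiomyocytes of the library labelled Tg female 2, against 21.1 to 28.5 CPM in the other 4 libraries, and its log2 difference by sex there was 1.24 (SE 0.50, edgeR adjusted p = 0.700). The part of fibroblast RNA in the Meg3 difference was not tested. In endocardial nuclei Meg3 was at 92.0 and 128 against 22.8 and 44.7 CPM (1.65, SE 0.35, edgeR adjusted p = 0.221) and Rian at 23.5 and 34.4 against 3.11 and 8.64 CPM (2.24, SE 0.56, edgeR adjusted p = 0.290). The female library labelled Tg female 1 had 18 of its 25 endocardial Rian UMIs in 1 nucleus.

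Kcnq1ot1 in cardiomyocytes was at 1334 and 1604 CPM in the female and 903 and 726 CPM in the male libraries. The groups did not overlap, with a log2 difference of 0.81 (SE 0.22, edgeR adjusted p = 0.501). This pair, Meg3 in endocardial nuclei, Kcnq1ot1 in endothelial nuclei and Igf2r in pericytes were named after their values were seen, for an unadjusted p under 0.05. The libraries drew their cardiomyocytes from different clusters: the Nppb and Ankrd1 cluster gave 1284 and 739 nuclei in the female against 69 and 33 in the male libraries, and the Ptgds cluster 29 and 22 against 780 and 826. Within the first cluster Kcnq1ot1 was at 1321 and 1583 against 984 and 628 CPM, within the second at 1368 and 2033 against 910.4 and 713 CPM, and within the Rp1 and Epha6 cluster at 1368 and 1755 against 889 and 791 CPM. The female libraries were thus the higher ones within each of these 3 clusters. The library labelled nTg female 1, also female, stood with the male libraries, at 831, 854 and 842 CPM.

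The other named pairs differed as follows. Plagl1 in cardiomyocytes (log2 difference 1.88, SE 0.49, edgeR adjusted p = 0.482) and Igf2 in cardiomyocytes (1.69, SE 0.61, edgeR adjusted p = 0.627) had means under 5 CPM in both sexes. Igf2r was at 959 and 1235 against 795 and 740.3 CPM in pericytes (0.52, SE 0.22, edgeR adjusted p = 0.716). Kcnq1ot1 in endothelial nuclei was at 598 and 528 against 396 and 414 CPM (0.41, SE 0.18, edgeR adjusted p = 0.547), with no overlap. In endocardial nuclei Peg3 was at 103 and 64.1 against 122 and 125 CPM (-0.56, SE 0.26, edgeR adjusted p = 0.692) and Plagl1 at 156 and 96.2 against 184 and 177 CPM (-0.53, SE 0.24, edgeR adjusted p = 0.713). For both, the lowest value was that of the library labelled Tg female 2. Those 2 were the only pairs with both female libraries below both male ones. The pairs without overlap that had the smallest differences to the female side were Mirg in fibroblasts (log2 difference 0.14, edgeR adjusted p = 0.900), Kcnq1ot1 in macrophages (0.14, edgeR adjusted p = 0.903) and Igf2r in endothelial nuclei (0.18, edgeR adjusted p = 0.836). By edgeR, no other imprinted gene was called in 199 tests (21 with an unadjusted p under 0.05) and no IGF gene in 81 tests (11). None of the genes that act on imprints or DNA methylation was called in 83 tests (4). DESeq2 called 0 in the first list, 1 in the second (Irs2 in fibroblasts) and 1 in the last (Zfp445 in cardiomyocytes).

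**Figure D3:**
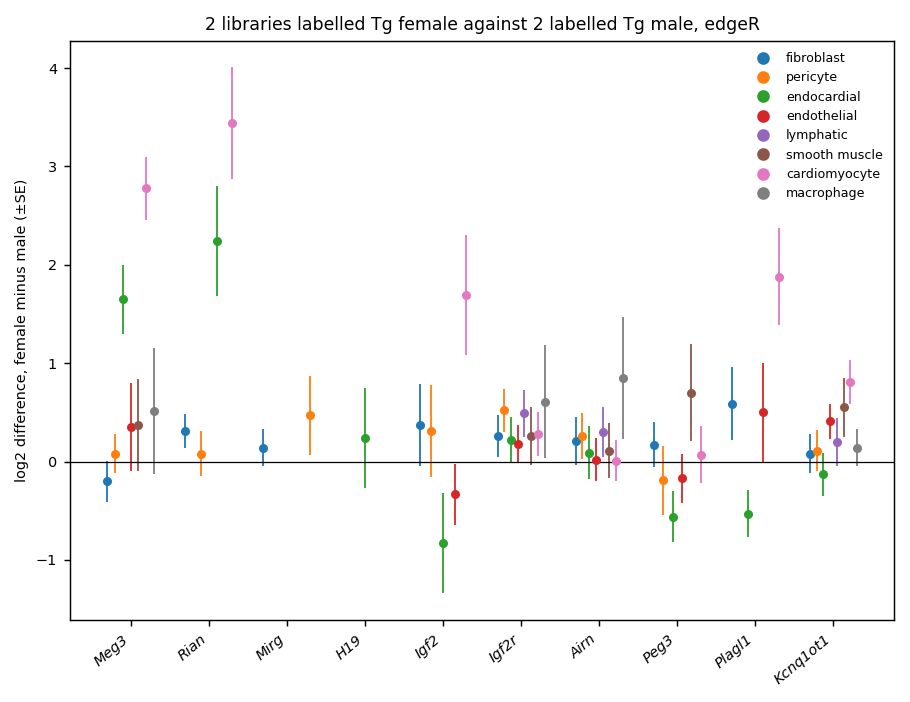
Log2 difference between the 2 libraries labelled Tg female and the 2 labelled Tg male for the member-by-class pairs, with standard errors. None passed an adjusted p of 0.05, and the points farthest to the female side are Rian and Meg3 in cardiomyocytes.

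Genotype had 1 nTg library, whose label Ccna2 contradicts, so its values are set beside those of the 4 libraries labelled Tg with no test. In 6 of 57 member-by-class pairs the library labelled nTg female 1 lay outside the range of the others and at least 2-fold from their mean, each on 8 or fewer UMIs in it, against 6.23% of all gene-by-class pairs. They were Rian in cardiomyocytes and endocardial nuclei and Meg3 in macrophages on the lower side, and Plagl1 in pericytes and smooth muscle and Igf2 in smooth muscle on the higher side. Meg3 in fibroblasts was at 619 CPM in it (95% Poisson interval 600.4 to 639, counting error only), below the 801 to 946 CPM of the others, and in pericytes at 477 CPM (434 to 523), below 541 to 669.7 CPM. Rian was likewise the lowest in both, at 92.7 and 71.7 CPM. The log2 ratio of Meg3 in fibroblasts to the mean of the others was -0.52. Kcnq1ot1 in lymphatic nuclei was also lowest in it, at 139 CPM against 183 to 262 CPM. On the higher side were Peg3 in cardiomyocytes (16.0 CPM against 7.97 to 12.1 CPM), smooth muscle (64.5 against 30.6 to 52.2) and pericytes (50.9 against 19.3 to 48.6), and Igf2 in pericytes (22.9 against 9.46 to 17.6). Of the 57 pairs, 15 lay below the range of the others (26.3%) and 8 above it (14%), while over all gene-by-class pairs 19.4% lay below and 16.8% above, and these are the values of 1 library.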

How the data were processed

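Nuclear RNA of adult mouse hearts was counted with 10x Genomics droplets. The deposited values are whole UMI counts of genes in barcodes, made by the authors with Cell Ranger 7.0.0 per the file headers and genome build mm10 per the labels. The gene annotation used and whether introns or strand were counted are not given in the sources used here. Total depth was 25045167 to 38593706 UMIs per library, and Poisson intervals (95%) and the limit of 3 UMIs behind a 0 cover counting error only.

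Barcodes with at least 200 genes and under 5% mitochondrial UMIs were kept, and doublets were removed per library (5.16 to 9.68%) with scanpy 1.11.5 at an expected 6%. Nuclei were clustered on 2000 variable genes without sex-linked genes, Ccna2 and the imprinted genes (30 components centred by library, 15 neighbours, Leiden resolution 1). Clusters were named from fixed markers, at least 3 of them raised. Counts were summed by class and library for classes with at least 50 nuclei in every library. Sex was tested with edgeR 4.0.16 (quasi-likelihood, TMM, filterByExpr, Benjamini-Hochberg within class over all genes, 0.05), after a test on simulated data. Levels by class, clusters and the nTg library carry no test. Alternatives were DESeq2 1.42.0, library totals, other filters, doublets kept, resolution 0.5, imprinted genes in the clustering, thinning to 1000 UMIs, a replicate block and leaving out each library. Removing the 4 nuclei that held most of a sum was chosen after seeing the data.

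The members and lists were chosen with earlier results of these data known. The text names all members, the 3 genes most like each (a gene like Peg3 is not reported here), the 5 other imprinted genes with the highest level, and pairs past a threshold followed by up to 5 without overlap in each direction. Promoters were matched for 9 of 10 members. The 3 libraries whose matrix did not match its barcode list were not used here.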

Additional observations from a re-analysis of the deposited data

How the results depend on the processing

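The class in which each of the 10 members was highest by its mean stayed the same in 10 of 10 under every alternative run (doublets kept, resolution 0.5, imprinted genes in the clustering, thinning, each of 5 libraries left out). The count of member tests called for sex, 0 by edgeR with 185 calls over all genes, did depend on the setting. It was 4 with 938 calls over all genes under the replicate block, 3 with 560 under DESeq2, 5 with 1914 with no filter on low counts, and 1 with doublets kept, while all genes gave 64 calls with 5 libraries and no genotype term. Leaving out 1 library gave 3 to 5 member calls and 634 to 3338 over all genes, the highest without the library labelled Tg female 1, where Igf2 in endocardial and endothelial nuclei was among the calls. The lone library of that sex is then assumed to vary like the others. The cause of these differences was not tested. Same-numbered libraries of the 2 sexes had deviations that correlated at -0.0379 to 0.144 by class, which cannot show whether they were handled as pairs. The labels give only a number, so the replicate block of 2 pairs is not a pairing known from the design. The replicate block called Meg3 and Rian in cardiomyocytes and endocardial nuclei. Without the 4 nuclei that hold most of a sum, edgeR called 0 member tests and 186 over all genes, and the log2 difference of Rian in cardiomyocytes turned from 3.44 to -0.02, since 2 of these nuclei carried its sum. With 1 of the other libraries labelled Tg left out, 4 to 9 pairs set the library labelled nTg female 1 outside by 2-fold. Depth limits H19 outside the endocardium, Mirg outside fibroblasts and pericytes, and Plagl1 in most classes, where a library often held under 10 UMIs.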

Other observations

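The nuclei rich in Meg3 were not the only ones that drew much of their RNA from 1 chromosome. With the leading gene of the chromosome left out, 42 of 34659 nuclei drew 20% or more of their UMIs from a single chromosome, 25 drew 30% or more and 13 drew 50% or more. Of the 25, 23 were cardiomyocytes, all in the cluster led by 9330158H04Rik, Far2 and Nppa (417 nuclei), and 1 each was a fibroblast and a macrophage. They involved 13 different chromosomes and had 673 to 13738 UMIs. By library there were 0, 6, 9, 9 and 1, in the order used above, and 0, 3, 3, 6 and 1 of 50% or more. The highest share was 93.8%, from chromosome 5 in the library labelled Tg male 1. The nucleus with 240 Meg3 UMIs also drew 43.3% of its UMIs from chromosome 2. No source of these nuclei was tested.

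Members other than Meg3, Rian and Mirg showed no such single nuclei: among sums of at least 20 UMIs by member, class and library, 1 nucleus held 50% or more only for Meg3, Rian and Mirg. In endocardial nuclei these were 18 of 25 Rian UMIs in the library labelled Tg female 1 and 12 of 22 Meg3 UMIs in the library labelled Tg male 1.

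Some other imprinted genes had narrow patterns as well, while Sgce had a broader one. Gatm, an enzyme of creatine synthesis, stood at 109 ± 47.7 CPM in macrophages against 9.40 ± 4.42 CPM in the next class, and Rasgrf1, an activator of RAS, at 43.4 ± 14.8 against 2.27 ± 0.942 CPM. Sgce, a part of the sarcoglycan complex, was highest in fibroblasts (147 ± 27.2 CPM) and pericytes (127 ± 24.6 CPM), the classes of Meg3. The difference between them was within the SD. It also stood at 102 CPM in endocardial nuclei and 72.6 CPM in smooth muscle, and its lowest class mean was 18.7 CPM, in cardiomyocytes. These genes were named after their values were seen.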
